A study of Danio rerio with 8 samples.

Results

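The contrast described here is the interaction of genotype and stage: the difference between MZspg and wild type at 60% epiboly minus the same difference at 30% epiboly. It uses all 8 arrays of the series, 2 in each of 4 groups. Wild type (WT) stands for AB x TÜB embryos. MZspg embryos carried m793, an allele of spg, which is the locus of the transcription factor gene pou5f3, and lacked its maternal as well as its zygotic function. Sampling took place 4.7 hours post fertilisation (30% epiboly) and 7 hours post fertilisation (60% epiboly) in both genotypes. Each array was made from 120 pooled whole embryos, staged after in vitro fertilisation or from the 4-cell stage of natural crosses, so tissues were not separated. Fewer cells of a type and less RNA per cell cannot be told apart in such samples. Beyond the allele, the labels give no strain for the MZspg embryos. The replicates were biological duplicates.

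Pou5f3 is a POU-domain factor, related to mammalian Oct4, that zebrafish eggs supply as maternal mRNA. Together with Nanog and SoxB1 factors it opens chromatin and activates many of the first genes of the embryo. Later, in gastrulation, Pou5f3 is needed for the cell movements of epiboly, for dorsoventral patterning and for the timing at which regulators of differentiation appear. The interaction asks for which transcripts the effect of losing Pou5f3 changed in size or direction between the stages.

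Values are the authors' signal intensities, analysed as log2(signal + 9). An interaction of 1 on this scale means that the genotype difference shifted by 1 log2 unit between the stages, and the scale understates changes of dim transcripts. Cells left empty in the deposited table were filled with 8.345, the 10th percentile of the signals. Filled cells carry no spread, so the standard error and p of genes with several filled cells can be too small. Empty cells made up from 14.98% to 22.42% of an array. The geometric mean of the spike-in controls was 592.1 for WT replicate 2 and 736.4 for MZspg replicate 2, both of 60% epiboly, while the remaining 6 arrays ranged from 79.86 to 189.9. These 2 arrays also had the most empty cells.

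No probe set passed the test of the interaction. With limma, 0 of 7375 tested probe sets (0%) had an adjusted p under 0.05, and the smallest adjusted p was 0.101. An unadjusted p under 0.05 was reached by 638 probe sets (8.65%), where a uniform distribution of p would put 5%. Of these, 321 (4.35%) lay above 0 and 317 (4.3%) below. All 16 differences of differences, taking 1 array per group each time, had 1 sign for 21.1% of the tested probe sets, 11.1% above 0 and 9.99% below, and 8.39% met both criteria. The share that would have 1 sign without any interaction was not determined, so the 21.1% is no measure of consistency. The median standard error of an interaction was 0.53, and the median half-width of its 95% interval was 1.16 log2 units. Shifts smaller than that could not be resolved for a typical probe set, even without adjustment. A single call needed an unadjusted p of limma of 6.78e-06, so larger shifts could be missed as well. The interactions of -3.22 for apela and 3.61 for pdgfaa were not called. The genes named below are therefore those with the smallest p, given as measurements, and none of them is a call.

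**Figure D1:**
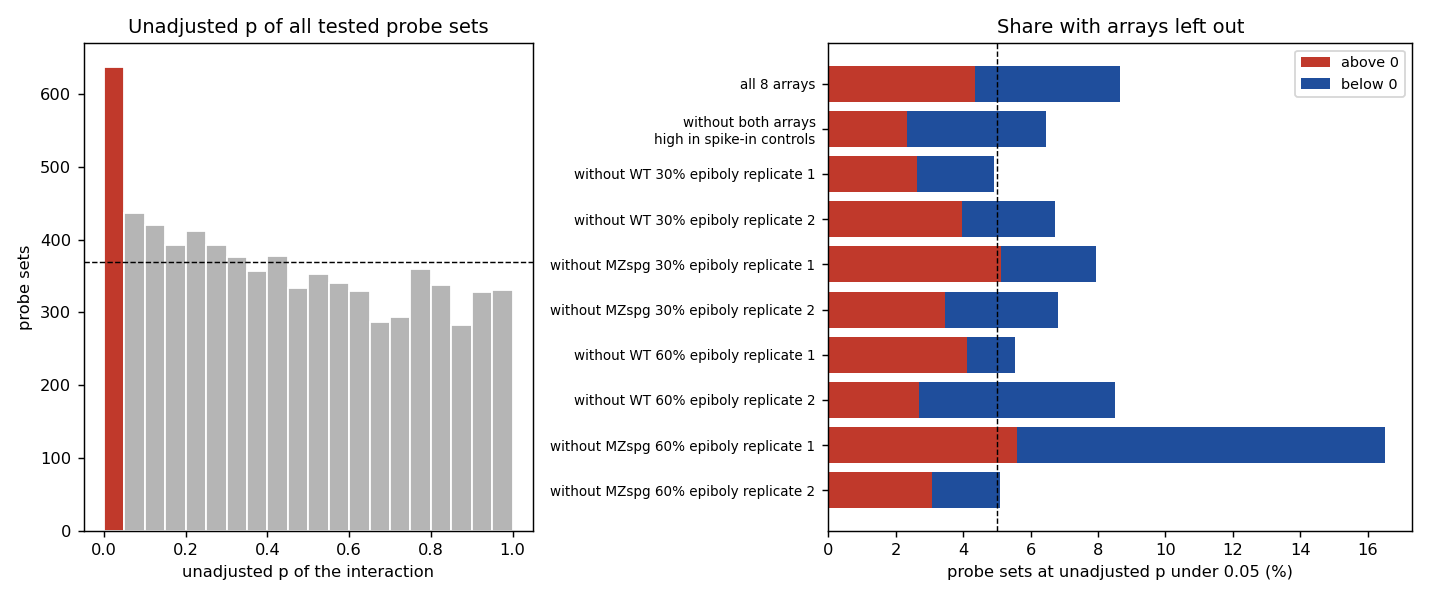
Left, number of tested probe sets in each 0.05-wide bin of the unadjusted p of the interaction; the dashed line marks the 368.8 probe sets per bin of a uniform distribution, and the first bin (red) holds 638. Right, percentage of probe sets at an unadjusted p under 0.05 with all 8 arrays and with arrays left out, split into interactions above 0 (red) and below 0 (blue); the dashed line marks 5%, and the share runs from 4.92% to 16.5%.

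The count depended on single arrays. Without MZspg replicate 1 of 60% epiboly, 1220 probe sets (16.5%) reached an unadjusted p under 0.05 and 54 were called, 19 of them above 0. With its partner, MZspg replicate 2, left out instead, 375 did (5.08%), with 0 called. Without WT replicate 1 of 30% epiboly the count was 363 (4.92%), and without WT replicate 1 of 60% epiboly it was 409 (5.55%), with 1 called. Leaving out either MZspg array of 30% epiboly also gave 1 call, the keratin gene krt97 without replicate 1 and a probe set with no symbol without replicate 2. Without both arrays high in spike-in controls, 476 probe sets (6.45%) remained under 0.05, of which 36.1% lay above 0, against 50.3% with all arrays. The 2 MZspg arrays of 60% epiboly were also the replicates least alike, with a correlation of 0.9212 across probe sets against 0.935 to 0.9516 in the other groups.

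The interaction can be read as a change of the genotype difference between stages or as a change of the stage difference between genotypes. By the first reading, 502 of the 638 probe sets had a larger genotype difference at 60% epiboly than at 30%. The difference was also larger at 60% for 4753 of all 7375 tested probe sets. Over all of them its median size was 0.26 at 30% epiboly and 0.44 at 60%, so a larger difference at 60% is not particular to the 638. Among the 502 growing differences, 268 were lower and 234 higher in MZspg. The difference was larger at 30% epiboly and faded for 131 probe sets, of which 86 were lower and 45 higher in MZspg. In 5 probe sets the difference turned, reaching at least 1 log2 unit in opposite directions at the 2 stages. Among these, apela alone had a genotype difference that was called at either stage. Outside these 5, sizes were compared without sign, so growing and fading differences could also cross 0. Lower and higher then refer to the stage of the larger difference. From 30% to 60% epiboly the median difference went from 0.25 to -1.28 (growing lower) and from -0.05 to 1.48 (growing higher). It went from -1.36 to 0.09 (fading lower) and from 0.93 to -0.49 (fading higher). By the second reading, 182 of the 268 growing lower differences belonged to transcripts whose WT level moved by less than 1 log2 unit between stages while the MZspg level dropped by 1 or more. In 28 of them the WT level climbed by at least 1 and the MZspg level moved by less. Of the 234 growing higher differences, 140 had a WT level that moved by less than 1 and a MZspg level that climbed by 1 or more. The share of such stage changes over all tested probe sets was not counted. The interaction is also the MZspg change minus the WT change, so the classes were chosen on these same values. The counts therefore only describe the classes.

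**Figure D2:**
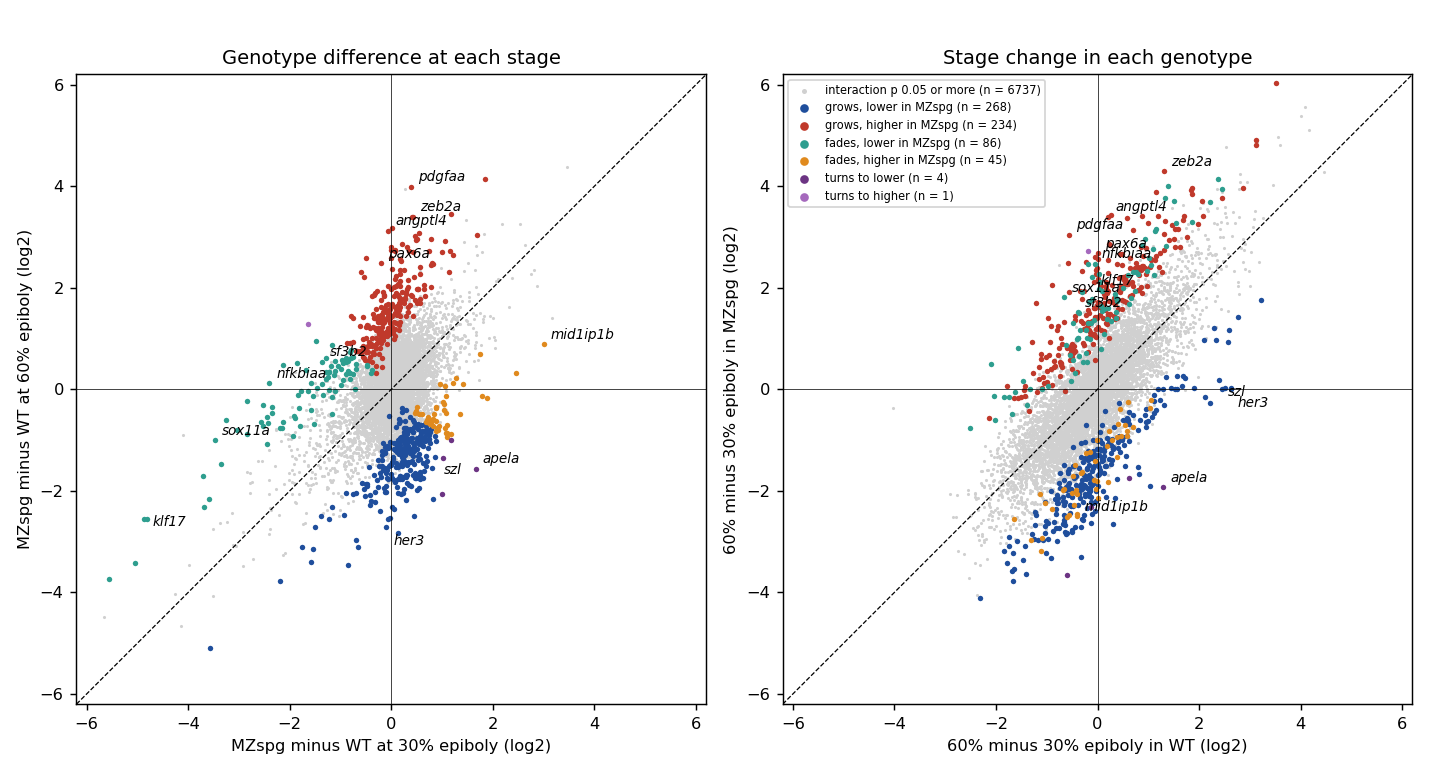
Left, MZspg minus WT at 30% epiboly (x) against the same difference at 60% (y); right, 60% minus 30% epiboly in WT (x) against MZspg (y), all as log2 differences of the 7375 tested probe sets. Points on the dashed diagonal have no interaction; colours mark the 638 probe sets at an unadjusted p under 0.05 by class, of which 268 grow and are lower and 234 grow and are higher in MZspg.

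The transcript of pou5f3 itself showed about the same genotype difference at both stages. WT arrays read 2850 and 3166 against 1292 and 1327 for MZspg at 30% epiboly, then 2957 and 2214 against 1268 and 890.8 at 60%. At each stage both MZspg arrays lay below both WT arrays. The interaction was -0.07, with a 95% interval from -0.77 to 0.64 (limma, adjusted p = 0.972). It changed sign within that interval when single arrays were left out, from -0.32 to 0.18. The sources do not say which part of the transcript the probes cover, so this is no check of the allele.

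The smallest p of the interaction belonged to apela, which encodes Apela (Toddler, Elabela), a short secreted peptide that acts through apelin receptors and guides mesendoderm cells during gastrulation. The WT arrays of 30% epiboly read 166 and 291.2, and the MZspg arrays 701.2 and 729.5. At 60% epiboly the order was reversed, with 563.1 and 545.5 in WT and 214.2 and 154.5 in MZspg. The genotypes did not overlap at either stage. MZspg exceeded WT by 1.66 log2 units at 30% epiboly (limma, adjusted p = 0.0292) and was lower by 1.56 at 60%, a log2 difference of -1.56 (adjusted p = 0.0229). Between the stages apela rose by 1.3 in WT (adjusted p = 0.0293) and fell by 1.92 in MZspg (adjusted p = 0.00238). The interaction was -3.22 (SE 0.475, 95% interval -4.26 to -2.18, unadjusted p = 2.27e-05, adjusted p = 0.101). It stayed between -3.61 and -2.83 whichever array was left out, and was -3.02 without both arrays high in spike-in controls.

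For the apelin receptor gene aplnra the shift had the opposite sign. WT read 367.2 and 358 and MZspg 710.4 and 462.2 at 30% epiboly, then 395.2 and 263.5 in WT and 1199 and 1392 in MZspg at 60%. In MZspg it rose between the stages by 1.16 (adjusted p = 0.0159), and its WT change was -0.16 (adjusted p = 0.765). The interaction was 1.32 (unadjusted p = 0.0113, limma adjusted p = 0.511). It was 1.02 without MZspg replicate 2 of 30% epiboly and 1.04 without WT replicate 2 of 60% epiboly, where the unadjusted p of limma was 0.0516 and 0.0582. Besides apela, the only named gene whose difference turned was actc1a, an actin of heart and muscle. It read 49.19 and 61.5 in WT and 10.7 and 12.6 in MZspg at 30% epiboly, and 66.24 and 32.48 against 62.22 and 251.6 at 60%, where the genotypes overlapped. Its genotype difference was called neither at 30% epiboly (limma, adjusted p = 0.242) nor at 60% (0.19). Its interaction of 2.92 (adjusted p = 0.419) was 1.99 without MZspg replicate 2 of 60% epiboly and 1.56 without both arrays high in spike-in controls.

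**Figure D3:**
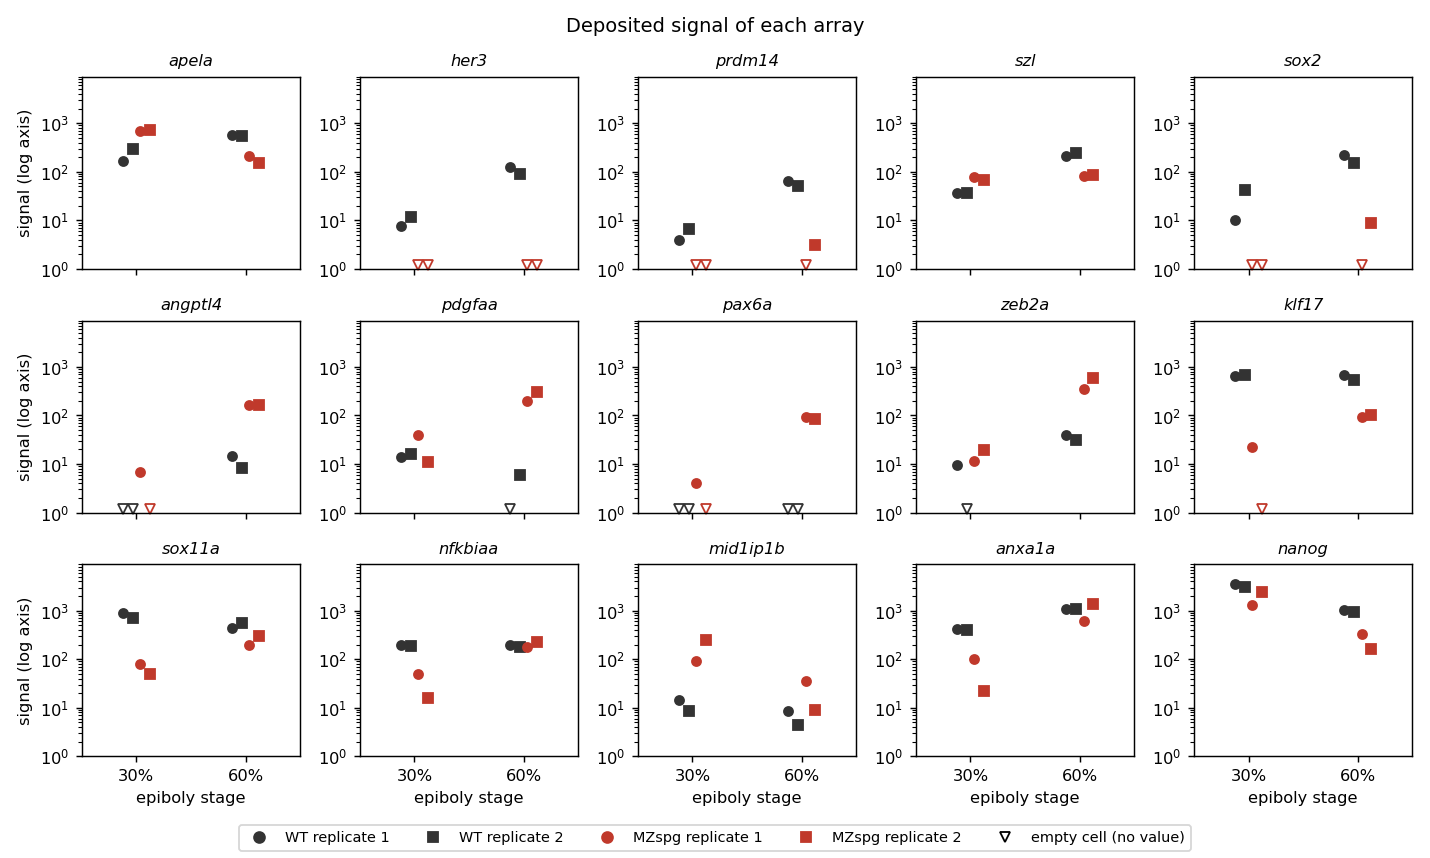
Deposited signal (log axis) of 15 genes on each of the 8 arrays, by stage, with WT in black and MZspg in red; circles are replicate 1, squares replicate 2, and open triangles mark empty cells, drawn at the lower edge. The genotypes of apela change places between 30% and 60% epiboly, her3 has no value on any MZspg array, and klf17 and sox11a lie closer together at 60%.

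Among growing differences lower in MZspg, several genes rose in WT between the stages and stayed dim in MZspg. Of these, her3, prdm14 and cnksr2b reached the filter level of 41.03 on the WT arrays of 60% epiboly alone. Their shared shape is thus partly set by the filter, which asked for at least 2 arrays at that level. With the filter level raised to 108.2 these genes were not tested. The Hairy-type repressor gene her3, which restrains neurogenesis in the neural plate, had signals of 7.511 and 11.83 in WT at 30% epiboly and of 124.9 and 88.26 at 60%. It had no value on any of the 4 MZspg arrays. At 60% epiboly WT was at least 4.26-fold higher, taking 24.62, the 95th percentile of signals whose replicate cell was empty, as the bound for MZspg. The WT increase was 2.62 (limma, adjusted p = 0.00509). The interaction with filled cells was -2.62 (SE 0.486, unadjusted p = 0.000178, adjusted p = 0.187), and it was -1.76 with all signals under the bound raised to it.

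The same shape was found for prdm14, a PR-domain regulator linked to pluripotency and germ cells in mammals. It read 3.979 and 6.541 in WT at 30% epiboly and 64 and 49.88 at 60%, with 1 value of 3.065 among the 4 MZspg arrays. Its interaction was -2.47 (adjusted p = 0.237), or -0.96 at the bound. The scaffold gene cnksr2b, of the Ras to MAP kinase pathway, climbed in WT from 8.815 and 8.557 to 101.7 and 83.46. In MZspg it had 1 value, 8.808 at 60% epiboly, and its interaction was -2.50 (adjusted p = 0.187), or -1.59 at the bound. Both rose in WT (limma, adjusted p = 0.00724 and 0.00509). Their stage change in MZspg cannot be judged, because all but 1 of the 4 MZspg cells of either gene were filled.

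The gene szl encodes Sizzled, a secreted inhibitor of the proteases that cleave Chordin and a feedback product of ventral Bmp signalling. It read 35.93 and 35.72 in WT and 76.3 and 69.17 in MZspg at 30% epiboly. At 60% epiboly WT had reached 209.3 and 244.6, and MZspg read 83.32 and 84.12. MZspg lay above WT at the first stage and below it at the second, without overlap at either. The genotype difference was 0.865 at 30% epiboly, which was not called (limma, adjusted p = 0.375), and -1.34 at 60% (0.0415). The WT increase was 2.39 (adjusted p = 0.00509) and the MZspg change 0.18 (adjusted p = 0.698), an interaction of -2.21 (SE 0.469, unadjusted p = 0.000545, adjusted p = 0.309). No cell was empty, and the interaction stayed between -2.32 and -2.1 over the fits with 1 array left out.

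In other growing differences the MZspg level fell between the stages. The RNA-binding protein gene snu13b, of the spliceosome and of small nucleolar particles, was bright on all arrays. It read 1975 and 1756 for WT and 2897 on each MZspg array at 30% epiboly, and 1911 and 1594 against 1156 and 832.1 at 60%. It fell by 1.55 in MZspg (limma, adjusted p = 0.00103) while its WT change was -0.09 (0.811), and the interaction was -1.46 (adjusted p = 0.301). Its genotype difference crossed 0, from 0.635 at 30% epiboly (adjusted p = 0.263) to -0.826 at 60% (0.0522), and was called at neither stage. The uncharacterised gene si:ch211-262h13.3 read 333.4 and 372.6 in WT and 638.3 and 424.7 in MZspg at 30% epiboly, and 776.6 and 505.9 against 217.9 and 113.1 at 60% (interaction -2.49, adjusted p = 0.315). Its MZspg change was -1.67 (limma, adjusted p = 0.00746) and its WT change 0.815 (0.165).

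Growing differences higher in MZspg included several genes that were dim or empty in the other 3 groups. The filter asked for at least 2 arrays at 41.03. All 6 genes named for this class reached that level on the MZspg arrays of 60% epiboly alone. So did tbx6, her2, smad6a, apobb.1 and fabp1b.1, described further below. Their low signals elsewhere are thus partly set by the filter and are no separate support. With the filter level raised to 108.2, pax6a and slc27a2a were not tested. The gene angptl4, whose secreted product inhibits lipoprotein lipase, had no value in WT at 30% epiboly and 1 value of 6.898 in MZspg. At 60% epiboly it read 14.62 and 8.163 in WT and 168.3 and 163.8 in MZspg, so the MZspg arrays of that stage stood apart from the other 6. It rose by 3.40 in MZspg (limma, adjusted p = 0.000407). Its WT change of 0.21 (0.708) is measured from filled cells at 30% epiboly. The interaction was 3.18 (SE 0.48, unadjusted p = 2.75e-05, adjusted p = 0.101), and 2.38 at the bound.

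The growth factor gene pdgfaa, a ligand that directs migrating mesendoderm in vertebrate gastrulae, read 13.76 and 15.76 in WT and 38.9 and 11.04 in MZspg at 30% epiboly. At 60% it had 1 WT value of 5.908, with the other cell empty, and 198.6 and 305.5 in MZspg. Its interaction of 3.61 was the largest of the 5219 tested genes (SE 0.621, unadjusted p = 9.39e-05, adjusted p = 0.187), and was 2.67 at the bound. The paired homeobox gene pax6a, a regulator of eye, forebrain and spinal cord, had no value on the 4 WT arrays and 1 value of 4.132 in MZspg at 30% epiboly. It read 91.01 and 84.96 in MZspg at 60%, at least 3.57-fold higher than WT, and its interaction was 2.68 with filled cells (adjusted p = 0.187) and 1.53 at the bound.

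The zinc-finger repressor gene zeb2a, known from neural crest and from changes between epithelial and mesenchymal states, climbed in both genotypes. It went from 9.459, with 1 cell empty, to 39.5 and 31.82 in WT, and from 11.3 and 19.04 to 358 and 587.2 in MZspg. The rise was 1.31 in WT (adjusted p = 0.0401) and 4.29 in MZspg (0.000209), an interaction of 2.98 (adjusted p = 0.187). The fatty acid transport gene slc27a2a read between 5.328 and 9.411 on the other 6 arrays and 76.61 and 140.9 in MZspg at 60% epiboly (interaction 2.64, adjusted p = 0.237, or 1.75 at the bound). The Dishevelled-binding protein gene ccdc88c read 27.78 and 15.63 in WT and 36.06 and 29.99 in MZspg at 30% epiboly, and 10.45 and 12.57 against 111.4 and 197.5 at 60% (2.47, adjusted p = 0.315). These 3 rose in MZspg (highest adjusted p = 0.00467).

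The 5 genes named for fading differences lower in MZspg were below WT at 30% epiboly and rose in MZspg by 60%. The Krüppel-like factor gene klf17, which marks the hatching gland and polster later on, read 659.5 and 684.2 and then 695 and 551.2 in WT. In MZspg it went from 22.26, with 1 cell empty, to 94.98 and 101.8, a rise of 2.2 (limma, adjusted p = 0.00199). It remained below WT at both stages (adjusted p = 5e-05 and 0.00275). Its interaction was 2.32 (SE 0.517, unadjusted p = 0.000789, adjusted p = 0.315), or 1.79 at the bound.

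The SoxC factor gene sox11a, a regulator of neural progenitors, read 888.2 and 695.6 in WT and 78.91 and 49.33 in MZspg at 30% epiboly, and 434.7 and 564.7 against 197.7 and 298.2 at 60%. The genotype difference was -3.47 at the first stage (adjusted p = 0.000448) and -1.0 at the second (0.125). The interaction of 2.47 (adjusted p = 0.248) had the same sign on its other 2 probe sets. The gene nfkbiaa, whose product holds NF-kappaB in the cytoplasm, read 196.2 and 186.7 in WT and 49.35 and 15.54 in MZspg at 30% epiboly. At 60% it read 193.3 and 174.6 in WT and 179 and 225.7 in MZspg, so that the genotypes overlapped. Its interaction was 2.53 (unadjusted p = 0.00116, adjusted p = 0.315), or 1.90 without MZspg replicate 2 of 30% epiboly.

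The splicing factor gene sf3b2, of the U2 particle, was lowest on the MZspg arrays of 30% epiboly, at 626.3 and 858, against 1976 and 1808 in WT and between 1126 and 2160 on the 60% arrays. Its genotype difference was -1.36 at 30% epiboly (adjusted p = 0.024) and 0.54 at 60% (0.247), with an interaction of 1.90 (adjusted p = 0.237). The gene rgs12b, of a family that ends G-protein signals, read 608.4 and 403.3 in WT and 33.05 and 81.6 in MZspg at 30% epiboly, and 385.8 and 408.8 against 264.4 and 190.2 at 60% (2.23, adjusted p = 0.419). Each of sf3b2, sox11a, nfkbiaa and rgs12b rose between the stages in MZspg (highest adjusted p = 0.00579), while no WT change was called (lowest adjusted p = 0.23).

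The 5 genes named for fading differences higher in MZspg had larger p than those of the classes above. The gene mid1ip1b, of a family that binds the microtubule regulator Mid1, read 14.18 and 8.547 in WT and 92.48 and 247.9 in MZspg at 30% epiboly. At 60% it read 8.41 and 4.498 in WT and 36.14 and 8.956 in MZspg (interaction -2.11, unadjusted p = 0.0146, adjusted p = 0.521). The folate transporter gene slc46a1 (-1.66), the transaminase gene kyat3.2 (-1.44), the nucleosome-binding gene hmgn1a (-0.85) and the actin-capping gene capzb (-1.93, 3 cells empty at 60% epiboly) had an adjusted p of 0.521 to 0.523. At the bound the interaction of slc46a1 was -0.75 (unadjusted p of limma 0.074). That of capzb was -1.07 without WT replicate 1 of 60% epiboly. The other probe set of hmgn1a had the opposite sign. The genotype differences of slc46a1, kyat3.2, hmgn1a and capzb lay above 0 at 30% epiboly and below 0 at 60%, and were not called at either stage. With single arrays left out, the interaction ran from -2.78 to -1.44 for mid1ip1b and from -2.15 to -1.16 for slc46a1. It ran from -1.71 to -1.17 for kyat3.2 and from -1.06 to -0.63 for hmgn1a. Of the 24 genes named for growing, fading or turning differences, 0 changed sign in those fits. That was fixed by their choice, which required 1 sign over all 16 differences of differences, so it is no separate support.

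Calls of the genotype difference at single stages can be set beside the interaction. At 30% epiboly 124 probe sets (1.68%) and at 60% epiboly 333 (4.52%) differed between the genotypes at an adjusted p under 0.05, and 66 were called at both stages. Of the 66, 48 were lower at both and 17 higher at both, and apela alone had opposite signs. The median size of their genotype difference was 2.35 at 30% epiboly and 2.34 at 60%, and 11 of them (16.7%) had an unadjusted interaction p under 0.05. Of 267 probe sets called at 60% epiboly alone, 165 (61.8%) did, and of 58 called at 30% epiboly alone, 31 (53.4%). These subsets were chosen on arrays that enter the interaction, so the shares have no test. Without both arrays high in spike-in controls, 23 probe sets were called at 60% epiboly alone and 67 at 30% alone, of which 23 and 18 had an unadjusted interaction p under 0.05. Leaving out 1 array of 60% epiboly changed the calls at 60% alone to 695 (MZspg replicate 1), 73 (MZspg replicate 2), 86 (WT replicate 1) and 87 (WT replicate 2). Leaving out 1 array of 30% epiboly changed the calls at 30% alone to 5 (WT replicate 1), 6 (WT replicate 2), 12 (MZspg replicate 2) and 56 (MZspg replicate 1).

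Gene lists are described by counts at an unadjusted interaction p under 0.05 and by their median, beside all 5219 tested genes, of which 198 lay above 0 and 174 below with a median of -0.01. The lists were chosen with earlier results of these data known, and some genes are in several lists. Their counts are therefore no test of enrichment. In the list of adhesion and gastrulation movement, 11 of 33 tested genes lay above 0 at that p and 2 below, with a median of 0.12 that was -0.11 without both arrays high in spike-in controls. Besides pdgfaa, zeb2a and aplnra, the 11 held the chemokine genes cxcl12b (2.09) and cxcl12a (1.97), the matrix protease gene mmp9 (2.29), the junction gene jam3b (2.95) and the kinase gene rock2a (1.48), whose MZspg arrays lay above WT at 60% epiboly. They also held the planar polarity gene prickle1b (1.88) and the laminin gene lamb1a (1.49), both below WT in MZspg at 30% epiboly (adjusted p = 0.00788 and 0.0271), and the cadherin gene cdh2 (1.47), whose genotypes overlapped there. The signal of prickle1b was 138.3 and 191.9 on WT arrays against 32.08 and 18.86 on MZspg arrays at 30% epiboly, and 117.8 and 129.8 against 76.58 and 99.02 at 60%. The 2 below were apela and the Wnt receptor gene ror2 (-1.69). Single arrays moved several of these values. Without MZspg replicate 2 of 30% epiboly the interaction was 1.21 for cxcl12a and 0.68 for cdh2, and cdh2 was at 2.25 without its partner. Without MZspg replicate 2 of 60% epiboly it was 1.35 for cxcl12b and -1.06 for ror2. Without both arrays high in spike-in controls it was 0.82 for cxcl12b, 1.19 for cxcl12a and 1.67 for jam3b. That of lamb1a, which had 1 empty cell in MZspg at 30% epiboly, was 1.0 at the bound (unadjusted p of limma 0.092). Members beyond the 2 with the smallest p in each list were chosen after their values were seen.

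**Figure D4:**
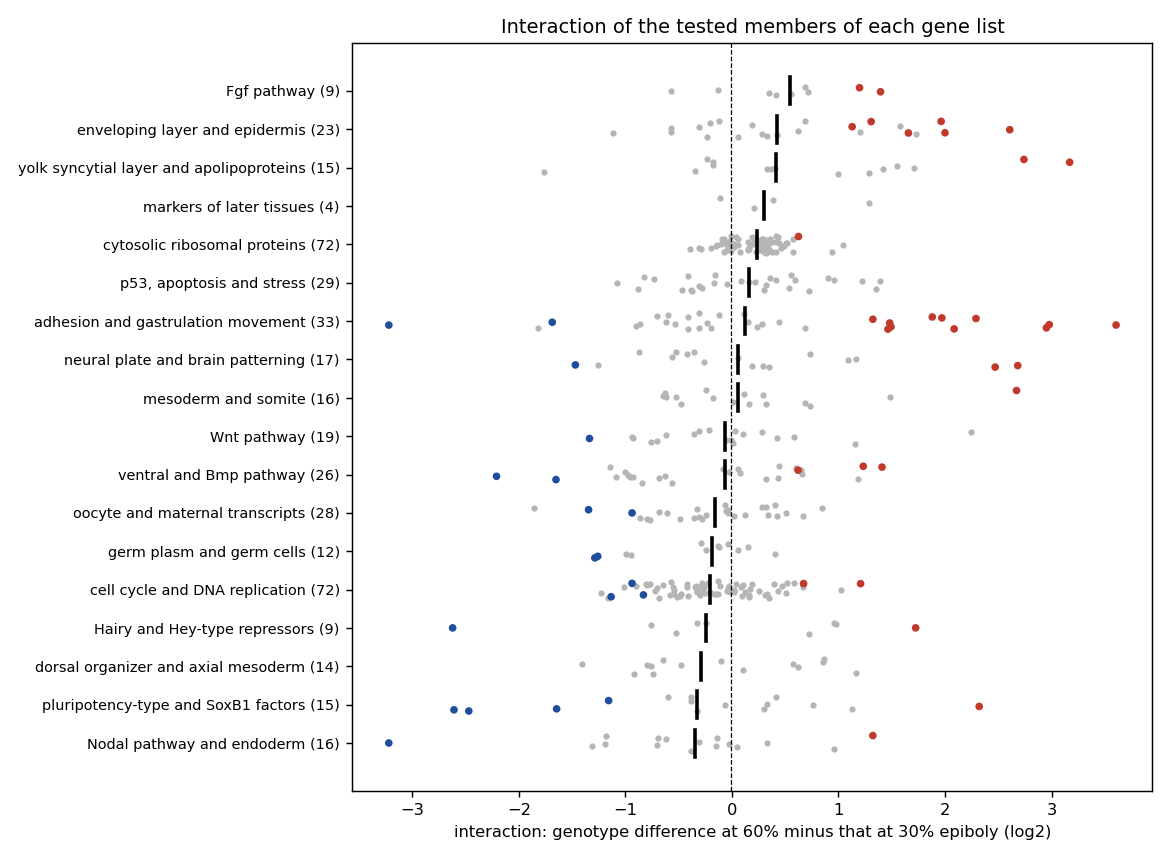
Interaction (log2) of each tested member of 18 gene lists, 1 point per gene, with the number of tested genes in brackets and the list median as a black bar. Red and blue points had an unadjusted p under 0.05 above and below 0; the dashed line is the median of all tested genes, -0.01, and the list medians run from -0.35 to 0.55.

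Of 15 tested pluripotency-type and SoxB1 factors, 4 lay below 0 at an unadjusted p under 0.05 and 1, klf17, above. The 4 were prdm14, the SoxB1 gene sox2, the Krüppel-like gene klf2a and the homeobox gene nanog. The signal of sox2 was 9.999 and 42.72 in WT at 30% epiboly and 225.4 and 152 at 60%, and in MZspg it had 1 value, 8.918 at 60% (interaction -2.61, adjusted p = 0.365). That of nanog was 3614 and 3103 on WT arrays against 1335 and 2429 on MZspg arrays at 30% epiboly, and 1053 and 935.7 against 326 and 166.2 at 60% (-1.16, adjusted p = 0.556). It declined in both genotypes, and the MZspg arrays lay below WT at each stage. The signal of klf2a was 193.8 and 132.5 against 131.7 and 275.5 at 30% epiboly, where the genotypes overlapped, and 36.62 and 44.19 against 10.34 and 8.894 at 60% (-1.65). At the bound the interaction of klf2a was -0.79 (unadjusted p of limma 0.187). That of nanog was -0.73 without MZspg replicate 2 of 30% epiboly and -0.69 without MZspg replicate 2 of 60% epiboly. The other SoxB1 genes had interactions of 0.33 for sox3, 0.30 for sox19a and -0.33 for sox19b (lowest unadjusted p = 0.471). The list's median was -0.33, but 0.05 without MZspg replicate 2 of 60% epiboly and -0.02 without both arrays high in spike-in controls.

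The ventral and Bmp list split, with 3 of 26 tested genes above 0 at an unadjusted p under 0.05 and 2 below (median -0.06). Below were szl and the ligand gene bmp7a (-1.65), which read 106.3 and 30.83 in WT and 9.428 with 1 cell empty in MZspg at 60% epiboly. The interaction of bmp7a was -0.88 without WT replicate 1 of 60% epiboly and -0.74 at the bound (unadjusted p of limma 0.266). Above were the inhibitory Smad gene smad6a (1.41), the Bmp target id1 (0.62) and the ventral repressor gene vox (1.23). The signal of smad6a was 34.33 and 20.32 on WT arrays against 84.02 and 97.44 on MZspg arrays at 60% epiboly, and at most 9.865 on the 30% arrays with a value. That of vox was 2585 and 2252 on WT arrays against 1633 and 548.8 on MZspg arrays at 30% epiboly, and 1639 and 1652 against 1366 and 1710 at 60%. Its interaction was 0.45 without MZspg replicate 2 of 30% epiboly and 2.01 without MZspg replicate 1.

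In the neural list 2 of 17 tested genes lay above 0 at that p, pax6a and sox11a, and 1 below, the homeobox gene lhx5 (-1.47), with a median of 0.06. That of lhx5 was -0.78 without MZspg replicate 1 of 30% epiboly. The anterior regulator gene otx2b, a member of the neural as well as the organizer list, read 80.68 and 18.19 in MZspg and 5.026 with 1 cell empty in WT at 30% epiboly, and 799.2 and 704.6 against 102.3 and 93.62 at 60%. Its MZspg arrays lay above WT at 60% epiboly. At 30% they lay above the 1 WT value, but 18.19 is under the bound of 24.62 for the empty WT cell. The interaction was 1.17 (unadjusted p = 0.119). It was 2.12 at the bound (unadjusted p of limma 0.00744), 0.31 without MZspg replicate 2 of 30% epiboly and 2.03 without its partner. The Hairy list had her3 below and her2 above 0 among 9 tested genes. The gene her2, another Hairy-type repressor, had no value on the 4 WT arrays and 1 value of 11.88 in MZspg at 30% epiboly. Its signal was 41.45 and 69.43 in MZspg at 60% epiboly, at least 2.18-fold higher than WT (interaction 1.73, adjusted p = 0.447, or 0.90 at the bound).

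The mesoderm list held 1 gene of 16 at that p, the T-box gene tbx6, with 57.47 and 178.4 in MZspg at 60% epiboly, 7.016 and 10.2 as its only other values, and an interaction of 2.67 (adjusted p = 0.315), or 1.73 at the bound. The list's median interaction was 0.06, but over the arrays of 30% epiboly it was -0.68 (MZspg replicate 2 left out), 0.82 (MZspg replicate 1), -0.54 (WT replicate 2) and 0.48 (WT replicate 1). Its median stage change was 1.96 in WT and 2.1 in MZspg. Of 28 oocyte and maternal transcripts, 0 lay above 0 and 2 below at that p, the zinc-finger gene cth1 (-1.35) and the cyclin gene ccnb2 (-0.94, or -0.60 without MZspg replicate 2 of 30% epiboly). The median stage change of this list was -1.33 in WT and -1.49 in MZspg.

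The list of the enveloping layer, the outer epithelium of the embryo, also covered the epidermis. An interaction above 0 was found for 16 of its 23 tested genes, beside 2576 of all 5219. Signs were uneven in other lists too, with 53 of 72 cytosolic ribosomal protein genes above 0 and 12 of 16 Nodal and endoderm genes below. Of the 23, 6 lay above 0 at an unadjusted p under 0.05 and 0 below, with a median of 0.42. The annexin gene anxa1a led them with 412.7 and 405.4 in WT and 102.8 and 21.75 in MZspg at 30% epiboly, and 1069 and 1099 against 616.2 and 1389 at 60% (interaction 2.61, adjusted p = 0.447). The keratin genes krt5 (2.00) and krt97 (1.96) and the periplakin gene ppl (1.13) also read below WT in MZspg at 30% epiboly. The grainyhead-like gene grhl1 (1.31) and the claudin gene cldnf (1.66) read above WT in MZspg at 60%. These values moved with 1 array: summed over 7 marker genes of this layer, the signal was 2802 on MZspg replicate 2 of 30% epiboly, against 6277 to 8594 for the rest of that stage. The WT sums of 60% epiboly were 13300 and 11090, and the MZspg sums 7208 and 8515. With that array left out the list's median interaction was 0.03, and with its partner left out it was 1.14, against 0.19 to 0.71 for the remaining 6 arrays. Without it the interaction was 1.68 for anxa1a, 0.92 for krt5, 0.63 for krt97 and 0.83 for grhl1, and without its partner it was 3.08 for krt5 and 3.3 for krt97. That of ppl was 0.45 without both arrays high in spike-in controls. No marker of these cell types was empty on all 8 arrays. The same array was the lowest of its stage for the sums of yolk syncytial (418), ventral and lateral mesoderm (1019), endoderm (367), dorsal organizer (955.3) and neural ectoderm (1101) markers, but not of germ cell or non-neural ectoderm markers. The part of these markers in the other results was not tested.

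Genes of the yolk syncytial layer, the nuclei-bearing layer at the yolk surface, had a median interaction of 0.41 over 15 tested genes, with 2 above 0 at that p and 0 below. The apolipoprotein gene apobb.1 had no signal above 10.15 except in MZspg at 60% epiboly, where it read 67.03 and 371.2 (3.17, adjusted p = 0.419). The fatty acid-binding gene fabp1b.1 had no value at 30% epiboly and read 35.22 and 24.42 in WT and 85.75 and 688.4 in MZspg at 60% (2.74, adjusted p = 0.521). Without MZspg replicate 2 of 60% epiboly the interactions were 2.01 and 1.3, and that of fabp1b.1 was 4.18 without MZspg replicate 1. The sum of 8 markers of this layer was 5184 on MZspg replicate 2 of 60% epiboly and between 2009 and 2467 on the others of its stage. The list's median was 0.18 without MZspg replicate 2 and 1.13 with MZspg replicate 1 of 30% epiboly left out.

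In the Fgf list the target genes dusp6 (1.40) and etv5a (1.2) lay above 0 at an unadjusted p under 0.05 and 0 of 9 lay below. The interaction of dusp6 was 0.77 without MZspg replicate 2 of 30% epiboly and 0.93 without WT replicate 2 of that stage, and that of etv5a was 0.64 without WT replicate 1 of that stage. The list's median of 0.55 was 0.11 without MZspg replicate 2 of 30% epiboly and 1.09 with its partner left out. In the Wnt list, which did not hold ror2, the frizzled receptor gene fzd9b was the only one of 19 tested genes at that p. It read 53.89 and 63.13 in WT and 8.815 and 13.22 in MZspg at 30% epiboly, and 154.6 and 120.4 against 7.601 with 1 cell empty at 60% (-1.34). It was lower in MZspg at both stages (adjusted p = 0.0255 and 0.000709). The Nodal and endoderm list held aplnra above and apela below 0 among 16 genes, and its median of -0.35 was -0.09 without MZspg replicate 2 of 60% epiboly. Of 14 organizer genes, 29 genes of p53, apoptosis and stress and 4 later tissue markers, 0 had an unadjusted p under 0.05.

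Germ plasm genes had 2 of 12 below 0 at that p and 0 above. The germ cell survival gene nanos3 read 190.4 and 268.3 in WT and 180.4 and 202.1 in MZspg at 30% epiboly, and 192.1 and 138.7 against 46.34 and 56.29 at 60% (-1.29, adjusted p = 0.533). The interaction of dnd1, which protects germ cell mRNAs, was -1.26, and was -0.71 without WT replicate 2 of 60% epiboly and -0.42 without both arrays high in spike-in controls. Of 72 cell cycle genes 2 lay above and 3 below 0 at that p, with a median of -0.21. The replication licensing gene cdc6 read 790.9 and 1087 in WT and 713.1 and 831.1 in MZspg at 30% epiboly, and 703.6 and 487.3 against 227.1 and 206.6 at 60% (-1.13). Cyclin ccna2 (-0.83) fell in MZspg by 1.49 (adjusted p = 0.00118), and its WT change was -0.66 (0.0601). The third gene below was ccnb2. Above 0 were the kinetochore motor gene cenpe (1.21) and cyclin gene ccnd1 (0.67), which read 2429 and 2470 in WT and 1156 and 1031 in MZspg at 30% epiboly, and 1781 and 1649 against 1148 and 1296 at 60%. Of 72 cytosolic ribosomal protein genes 1 lay above 0 at that p, rpl24 (0.62), and 0 below, with a median of 0.24 and a range from -0.40 to 1.04.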

How the data were processed

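The authors deposited signal intensity values for 12477 probe sets on 8 Affymetrix arrays. The software was MAS5, per the submitters' processing notes. For the authors' own comparisons the design text names Genedata Expressionist Analyst. Why cells are empty and how arrays were scaled is not stated in those sources. Identical signals recurred for different genes on different arrays. An example is 2850, for pou5f3 on WT replicate 1 of 30% epiboly and for rpl24 on MZspg replicate 2 of 60% epiboly. Here, 30 control probe sets were dropped, and log2(intensity + 9) was tested where at least 2 arrays reached 41.03, the 40th percentile. limma 3.58.1 (R 4.3.3) was fitted to the 4 group means with trended eBayes, giving 4 residual degrees of freedom and 7.674 from the prior. Tests were two-sided with Benjamini-Hochberg adjustment over 7375 probe sets, and the procedure was checked on simulated data. The number of arrays limits the precision.

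A gene was represented by its brightest tested probe set with 1 symbol in the platform annotation. Named by rule were pou5f3, the genes of smallest p in each class whose 16 differences of differences had 1 sign (up to 6 per growing class, 5 per fading class and 3 per turning class, of which 1 each existed), and 2 genes per list. Of 28 Hox genes listed, 9 were on the array and 0 were tested. The members and lists were chosen with earlier results of these data known. From the ribosomal list, 6 kinases or binding proteins that its name pattern had matched were removed after their values were seen. The bound of 24.62 for empty cells and the counts of calls by stage were added after seeing the data. Deviations of same-numbered replicates correlated between groups from -0.333 (WT at 30% and WT at 60% epiboly) to 0.078 (WT and MZspg at 60%). Replicate numbers are labels, so a negative correlation does not show that arrays were independent. Whether arrays of different groups were processed together was not tested.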

Additional observations from a re-analysis of the deposited data

How the results depend on the processing

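With all 8 arrays in the fit, 0 probe sets were called under every alternative run except a pseudocount of 50, where 3 were (angptl4, zeb2a and apela). Leaving out single arrays gave 0 to 54 calls, 193 to 413 probe sets above 0 and 105 to 807 below at an unadjusted p under 0.05. In those fits 92 to 752 differences grew lower, 119 to 323 grew higher, 47 to 166 faded lower, 11 to 74 faded higher, 1 to 14 turned lower and 0 to 7 turned higher. The interaction of pou5f3 ran from -0.32 to 0.18 in those fits, and was 0.01, 0.14 and 0.18 without replicate 1 of WT at 30% epiboly, replicate 1 of WT at 60% or replicate 2 of MZspg at 60%.

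A pseudocount of 1 gave 11 turns to lower and 2 to higher, and one of 50 gave 73 fading higher, 1 turn to lower and 0 to higher. With no filter, 554 lay above 0 at an unadjusted p under 0.05, 428 grew higher and 114 faded higher. The stricter filter left 170 above 0, 107 growing higher, 27 fading higher and 0 turning higher, from 5168 probe sets tested. Filling empty cells with the lowest value gave 7 turns to lower, and centring gave 2. Without both arrays high in spike-in controls, 172 lay above 0, 134 grew higher, 36 faded lower, 24 faded higher and 2 turned higher. Raising dim signals to the bound, chosen after seeing the data, gave 77 fading higher, 2 turns to lower and 0 to higher. The share above 0 among probe sets at an unadjusted p under 0.05 was 50.3% with all arrays, 36.1% without both high arrays, and 31.8% to 74.3% with single arrays left out. With the replicate number as a block, 601 probe sets reached that p and 0 were called. The causes were not tested, except that the filters also change how many probe sets are tested. Signals near the bound of 24.62 limit what can be said of dim transcripts.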

Other observations

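Among 628 genes with several tested probe sets, all probe sets shared the sign of the interaction for 321 (51.1%). The corresponding share was 62.6% for the genotype difference at 30% epiboly and 50.5% for that at 60%. Where the brightest probe set had an unadjusted interaction p under 0.05, 36 of 49 other probe sets of the same gene had its sign (73.5%). Of the 638 probe sets at that p, the growing lower class held 26 and the growing higher class 71 with no gene symbol in the annotation used.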
